A study of Gloeophyllum trabeum and Trametes versicolor with 18 samples.

Results

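The comparison described here sets *Gloeophyllum trabeum* grown on low-melanin fungal necromass against the same fungus grown on glucose, across all of its transcripts. It takes the 3 low-melanin and the 3 glucose libraries, 6 of the 18 libraries of the series. These libraries were chosen by their labels, with earlier results of these data known. Both groups are strain ATCC 11539 and were sampled as fungal biomass after 7 days in Highley's medium. Low-melanin necromass was supplied at 0.45% (w/v) and glucose at 1% (w/v), so the kind and the amount of the carbon source cannot be told apart. The fungus that gave the necromass is not named in the sources used here. The study's title asks whether wood-decay fungi take necromass and plant litter apart along similar pathways.

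*G. trabeum* is a brown-rot fungus, which opens plant cell walls with iron and hydrogen peroxide chemistry and uses the cellulose and hemicellulose while much of the lignin stays behind in altered form. Necromass is dead fungal biomass, rich in chitin, glucans and protein, and melanins are dark, polyphenol-like polymers laid down in the walls of many fungi. Glucose enters glycolysis directly, and in many fungi it holds down genes for the use of other carbon sources.

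The tables list 11880 *G. trabeum* transcripts, of which 11753 are protein coding, 123 are tRNAs and 4 are tRNA pseudogenes. After a filter on low counts, 10728 were tested and 1152 were not. Low-melanin libraries 1 to 3 held 18050313, 18430706 and 21780399 estimated counts, and glucose libraries 1 to 3 held 21138281, 19616536 and 19569518. Within a gene, levels are given as CPM, the count relative to the TMM-scaled total of its library, and between genes as the deposited TPM, which also takes transcript length into account. Across genes, Pearson correlations of log2 CPM were 0.983 to 0.988 between low-melanin libraries and 0.983 to 0.990 between glucose libraries, against 0.830 to 0.864 between the groups. The mean fragment length differed between libraries: it was 245, 262 and 264 bases in low-melanin replicates 1 to 3 and 317, 264 and 268 bases in glucose replicates 1 to 3. The p-values come from a fit to all 9 *G. trabeum* libraries, so they also reflect the spread among the 3 high-melanin libraries. Whether each library stands for a culture of its own is not said in the labels, so the spread may be technical.

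Genes are named by their symbol where the reference gene table has one, and otherwise by a locus tag that starts with GLOTRDRAFT_. A gene was called when its Benjamini-Hochberg adjusted p in edgeR's quasi-likelihood test was under 0.05. By that rule 55.6% of the genes tested were called, 28% higher and 27.6% lower on low-melanin necromass than on glucose. Called genes at least 2-fold higher made up 14.7% and those at least 2-fold lower 11.3%, and the 3 libraries of one group did not overlap in CPM with the 3 of the other for 67.4% of genes, or 55% when a call was also required. In bulk RNA, fewer cells that express a gene and less RNA per cell cannot be told apart.

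Strong changes were more often upward. At least 16-fold higher were 113 called genes and at least 16-fold lower 67, and for at least 128-fold the counts were 17 and 3. The 113 genes took 12.8%, 12.9% and 13.1% of all counts in the low-melanin libraries and 0.224%, 0.296% and 0.268% in the glucose libraries. The 67 genes took 0.0983%, 0.123% and 0.107% in the low-melanin libraries and 3.94%, 3.48% and 3.60% in the glucose libraries. These shares describe genes chosen by the same contrast and test nothing. Most called genes moved less: 3172 of the 5963 called genes changed by under 2-fold. The median log2 fold change was 0.02 over all genes tested, 1.04 over the called higher genes and -0.85 over the called lower genes.

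**Figure D1:**
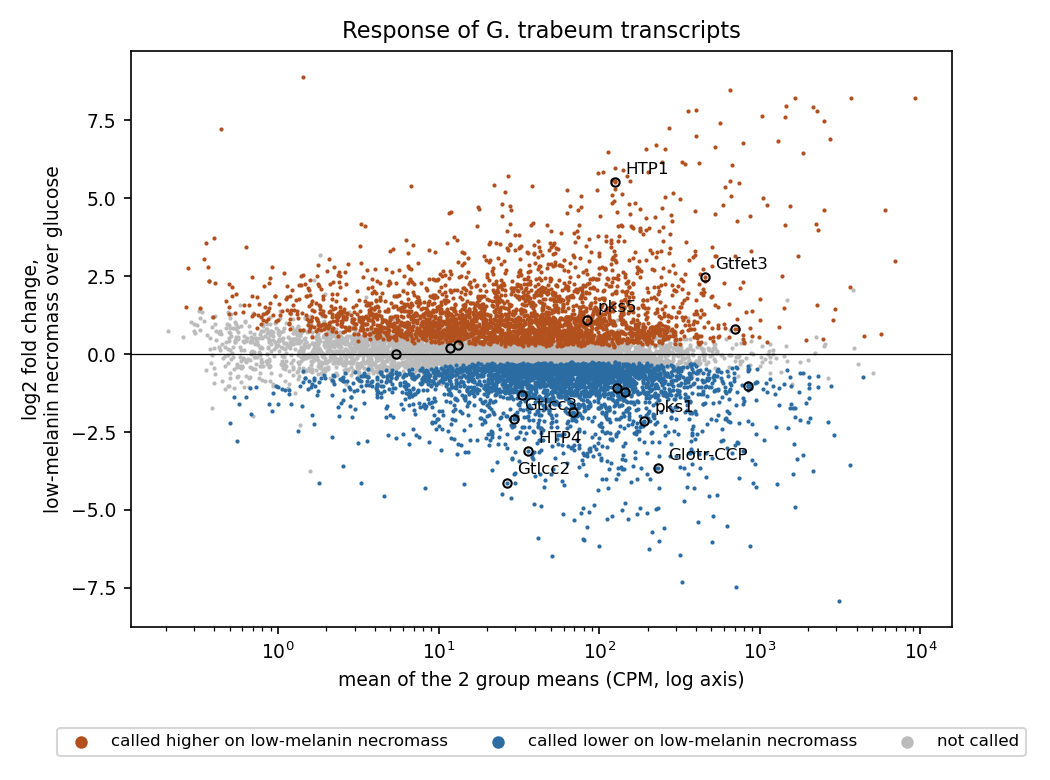
Each point is 1 of 10728 *G. trabeum* genes, with the mean of its low-melanin and glucose group means in CPM on a log axis and its log2 fold change, low-melanin necromass over glucose, on the vertical axis. Circles mark the 17 tested genes with a symbol. Points reach past 8 above the zero line and to -7.91 below it.

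The balance of rises and falls differed with the level at which a gene was read. Among 2134 genes with a mean of 1 to 10 CPM over the 6 libraries, 648 were called higher and 272 lower on low-melanin necromass. Among 2295 genes between 100 and 1000 CPM the order was the other way round, with 614 called higher and 937 lower. Above 1000 CPM 35 of 112 genes were called higher and 46 lower. In the largest class, 5899 genes between 10 and 100 CPM, the calls were near even, with 1655 higher and 1690 lower. Below 1 CPM 52 of 288 genes were called higher and 14 lower. Over all genes tested 28% were called higher and 27.6% lower. By length, genes over 3000 bases had the smallest shares of at least 2-fold calls, 8.66% higher and 5.68% lower of 739, against 13.7% to 16.7% higher and 7.23% to 13.5% lower in the 5 shorter length classes. Neither relation was tested.

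The reference table gives a symbol to 19 of the listed transcripts: 4 laccases, 1 ferroxidase, 5 heme-thiolate peroxidases, 1 cytochrome c peroxidase and 8 polyketide synthases, as read from the symbols. Of these, 17 were tested, and pks3 and pks9 had no count in any of the 6 libraries. On low-melanin necromass 4 of the 17 were called higher, 10 were called lower and 3 were not called, while 28% of all genes tested were called higher and 27.6% lower. The median log2 fold change of the 17 was -1.09, against 0.02 over all genes tested.

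Laccases are multicopper oxidases that take electrons from phenols and pass them to oxygen. Of the 4 laccase genes 3 fell on low-melanin necromass, none rose and 1 was not called, beside 27.6% called lower and 28% called higher over all genes. Gtlcc2 was read at 3.17, 3.00 and 2.49 CPM on low-melanin necromass and at 69.8, 46.1 and 35.3 CPM on glucose, a log2 fold change of -4.13 ± 0.38 (SE, edgeR adjusted p = 1.31e-05). Gtlcc3 was read at 12.7, 10.8 and 10.4 CPM on low-melanin necromass and at 60.5, 40.5 and 41.6 CPM on glucose, a log2 fold change of -2.07 ± 0.21 (adjusted p = 2.53e-05). In both genes every low-melanin library lay below every glucose library, and glucose replicate 1 was the highest. Gtlcc4 fell by less, with 17, 18.1 and 21.6 CPM on low-melanin necromass and 56.5, 37.3 and 47.9 CPM on glucose, a log2 fold change of -1.32 ± 0.19 (adjusted p = 0.000275), again without overlap. Gtlcc1 had 13.6, 12.9 and 11.2 CPM on low-melanin necromass and 9.58, 11.7 and 11.6 CPM on glucose. The groups overlapped, and the log2 fold change of Gtlcc1 was 0.20 ± 0.17 (adjusted p = 0.34).

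Per length, the order of the laccases differed between the carbon sources. On low-melanin necromass Gtlcc4 was the highest at 7.00 to 12.5 TPM, Gtlcc1 at 4.89 to 5.57 TPM and Gtlcc3 at 4.45 to 5.17 TPM overlapped, and Gtlcc2 was the lowest at 1.15 to 1.26 TPM. On glucose Gtlcc4 at 22.4 to 30.6 TPM, Gtlcc3 at 20.9 to 28.1 TPM and Gtlcc2 at 18.2 to 32.8 TPM overlapped, and Gtlcc1 was the lowest at 4.46 to 6.07 TPM.

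Fet3-type ferroxidases are multicopper oxidases which, in yeast, oxidise iron at the cell surface for uptake by a partner permease. Gtfet3 rose: it was read at 792, 817 and 706 CPM on low-melanin necromass and at 88.1, 130.1 and 198 CPM on glucose. Its log2 fold change was 2.48 ± 0.26 (SE, edgeR adjusted p = 2.93e-05) and the groups did not overlap. Its reads were in part shared with other transcripts, which leaves the level uncertain. Both genes that follow Gtfet3 in the gene order moved the other way, and both also share reads. GLOTRDRAFT_139783 had 470.2, 719 and 522 CPM on low-melanin necromass and 6962, 6829 and 6221 CPM on glucose, a log2 fold change of -3.55 ± 0.34 (adjusted p = 1.66e-05). GLOTRDRAFT_139784 had a log2 fold change of -1.25 ± 0.17 (adjusted p = 0.000142).

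Heme-thiolate peroxidases use hydrogen peroxide to insert oxygen into many organic compounds. Of the 5 genes with the symbol HTP, 2 rose, 1 fell and 2 were not called, so that 3 of 5 were called, near the 55.6% called over all genes. HTP1 was read at 290.5, 249 and 194 CPM on low-melanin necromass and at 2.21, 4.17 and 9.69 CPM on glucose, a log2 fold change of 5.52 ± 0.52 (SE, edgeR adjusted p = 1.45e-05). Every low-melanin library was far above every glucose library, and glucose replicate 3 was the highest of the glucose libraries. The log2 fold change of HTP1 was 4.82 with fragment length as a covariate and 6.24 without glucose replicate 3. HTP5 was the more abundant, with 859, 966 and 857 CPM on low-melanin necromass and 399.5, 665 and 485 CPM on glucose, a log2 fold change of 0.79 ± 0.20 (adjusted p = 0.00669). HTP4 fell, with 7.90, 9.76 and 4.85 CPM on low-melanin necromass and 69.0, 59.6 and 65.2 CPM on glucose, a log2 fold change of -3.11 ± 0.24 (adjusted p = 3.59e-06). None of these 3 genes overlapped between the groups.

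HTP2 and HTP3 are neighbours in the gene order and neither was called (log2 fold change 0.00 ± 0.18, adjusted p = 0.996, for HTP2 and 0.28 ± 0.22, adjusted p = 0.295, for HTP3). HTP2 had 6.40, 5.26 and 4.71 CPM on low-melanin necromass and 6.06, 5.83 and 4.42 CPM on glucose. HTP3 had 14.7, 16.3 and 12.2 CPM on low-melanin necromass and 11.5, 13.5 and 10.5 CPM on glucose. The groups overlapped in both. Per length, HTP5 at 301, 390.2 and 418 TPM stood above HTP1 at 173, 172 and 162 TPM on low-melanin necromass. On glucose HTP5 was followed by HTP4, at 182, 338 and 241 TPM for HTP5 and 199.8, 166 and 179 TPM for HTP4, with overlap between them.

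Cytochrome c peroxidase is a mitochondrial enzyme, in yeast, that removes hydrogen peroxide with electrons from cytochrome c. Glotr-CCP fell to 36.7, 35.5 and 30.4 CPM on low-melanin necromass, against 463, 414 and 409 CPM on glucose. Its log2 fold change was -3.65 ± 0.13 (SE, edgeR adjusted p = 6.94e-08), with no overlap and little spread in either group.

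Polyketide synthases are large enzymes that build the carbon chains of many fungal pigments and toxins, and a polyketide synthase fused to a nonribosomal peptide synthetase adds an amino acid to such a chain. Of the 6 tested genes 1 rose and 5 fell on low-melanin necromass, beside 28% called higher and 27.6% called lower over all genes, and the call of 1 of the 5, pks6, was lost under 4 alternatives. The gene that rose was pks5, read at 86.3, 145 and 113 CPM on low-melanin necromass and at 54.8, 54.5 and 52.2 CPM on glucose, a log2 fold change of 1.09 ± 0.17 (SE, edgeR adjusted p = 0.000445). Among those that fell, pks2 had 26.6, 28.6 and 33.6 CPM on low-melanin necromass and 117, 99.2 and 108 CPM on glucose. Its log2 fold change was -1.86 ± 0.14 (edgeR adjusted p = 3e-06), with part of its counts shared with other transcripts. The gene pks4 had 74.8, 77.8 and 109 CPM on low-melanin necromass and 193, 217 and 198 CPM on glucose, a log2 fold change of -1.22 ± 0.21 (adjusted p = 0.000896). For pks5, pks2 and pks4 no low-melanin value fell among the glucose values.

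The gene pks1 was more variable, at 119, 28.6 and 63.2 CPM on low-melanin necromass and 222, 406 and 299 CPM on glucose, with a log2 fold change of -2.14 ± 0.46 (SE, edgeR adjusted p = 0.00297), or -2.75 without low-melanin replicate 1. The gene pks6 had 716, 324 and 628 CPM on low-melanin necromass and 663, 1413 and 1302 CPM on glucose, and its groups overlapped because glucose replicate 1 lay among the low-melanin libraries. Its log2 fold change of -1.02 ± 0.35 (adjusted p = 0.03) lost its call without low-melanin replicate 2 (-0.73, adjusted p = 0.0888), without glucose replicate 2 (-0.85, adjusted p = 0.0959), without glucose replicate 3 (-0.92, adjusted p = 0.0739) and with a replicate block (-1.02, adjusted p = 0.0639). Over all alternatives the adjusted p of pks6 ran from 0.00587 to 0.0959.

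**Figure D2:**
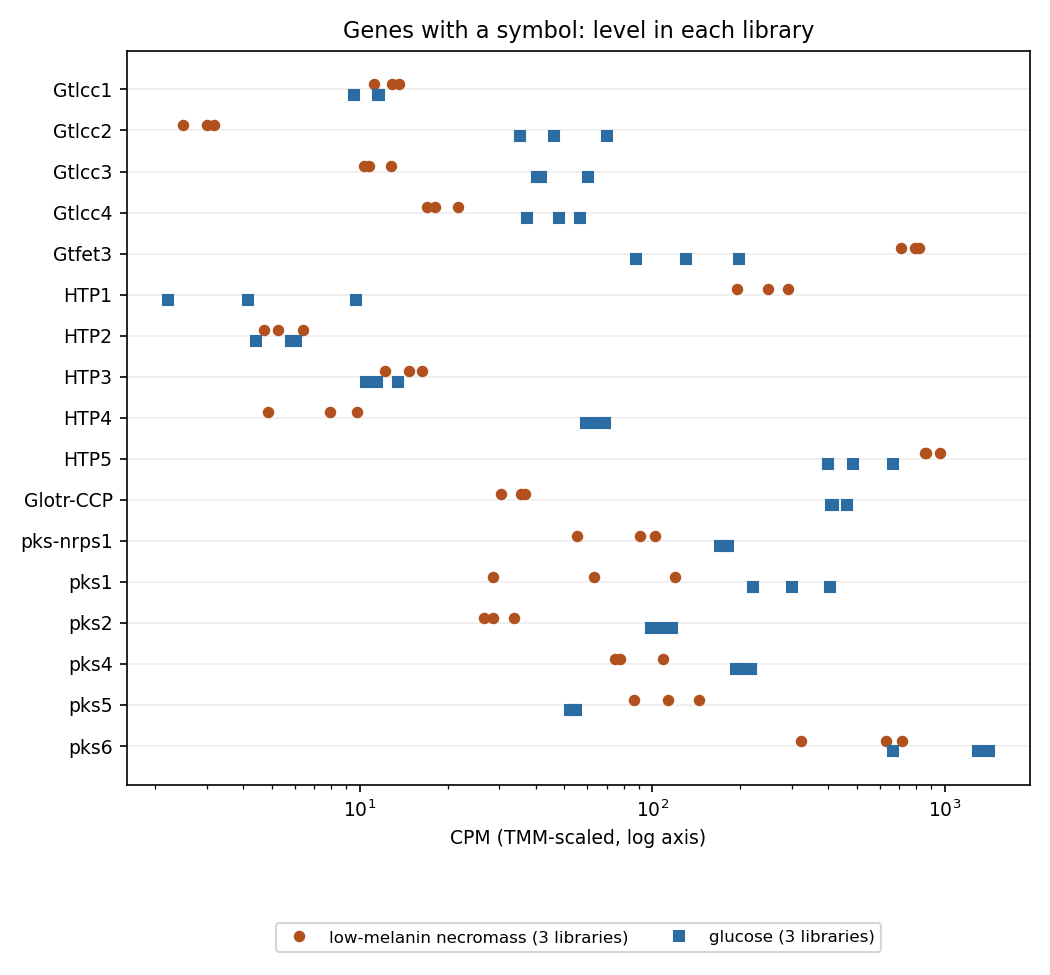
CPM on a log axis of the 17 tested genes with a symbol in each of the 3 low-melanin libraries (circles) and the 3 glucose libraries (squares). Circles and squares lie furthest apart for HTP1, with low-melanin values of 194 to 290.5 CPM and glucose values of 2.21 to 9.69 CPM, and they mix for Gtlcc1, HTP2, HTP3 and pks6.

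Neither the deposited tables nor the reference table pairs the remaining tags with a product, so the largest changes are given by tag. The 8 largest fold changes each way were taken from called genes with no overlap and at least 10 CPM in the higher group. Of the 8 rises, GLOTRDRAFT_96872 led with 648, 2051 and 1186 CPM on low-melanin necromass and 1.54, 3.91 and 5.48 CPM on glucose. Its log2 fold change was 8.48 ± 0.62 (SE, edgeR adjusted p = 2.85e-06). GLOTRDRAFT_127716 had 7450.5, 7267 and 7425 CPM on low-melanin necromass and 12, 28.9 and 32.9 CPM on glucose. GLOTRDRAFT_122601 had 2666, 3085 and 2942 CPM on low-melanin necromass and 6.93, 13.6 and 14.9 CPM on glucose, a log2 fold change of 7.94 ± 0.38 (adjusted p = 2.4e-07). The low-melanin values of the last 2 lay close together, while their glucose values differed by more than 2-fold between libraries. The other 5 were GLOTRDRAFT_127948, GLOTRDRAFT_127955, GLOTRDRAFT_112664, GLOTRDRAFT_139455 and GLOTRDRAFT_127957, with log2 fold changes of 8.23, 8.22, 7.92, 7.83 and 7.81.

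In all 8 of these genes glucose replicate 1, the library with the longest fragments, was the lowest of the glucose libraries. Over the 1575 called genes at least 2-fold higher, the lowest glucose library was replicate 1 for 769, replicate 2 for 356 and replicate 3 for 450. With fragment length as a covariate 5 of the 8 kept log2 fold changes of 7.13 to 7.61, each a move of over 1.5-fold. Fragments measured 317 bases in glucose replicate 1 and 245 to 269 bases in every other library of the fit. Fragment length and other traits of that library therefore cannot be told apart. GLOTRDRAFT_96872, GLOTRDRAFT_127948, GLOTRDRAFT_127955, GLOTRDRAFT_112664 and GLOTRDRAFT_127957 carry counts divided with other transcripts and are uncertain for that reason.

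Falls were nearly as deep at the extreme. GLOTRDRAFT_108386 was read at 28.6, 24.4 and 23.9 CPM on low-melanin necromass and at 6319, 6118 and 6105 CPM on glucose, the largest fold fall among those named by the rule and also the largest fall in CPM. GLOTRDRAFT_108506 had 3.78, 4.5 and 4.17 CPM on low-melanin necromass and 693, 669.6 and 604 CPM on glucose, a log2 fold change of -7.30 ± 0.21 (SE, edgeR adjusted p = 3.21e-08). GLOTRDRAFT_80390 had 23.8, 25.6 and 23.1 CPM on low-melanin necromass and 2026, 1525 and 1624 CPM on glucose, a log2 fold change of -6.16 ± 0.19 (adjusted p = 3.21e-08). All 3 were high on glucose and low on low-melanin necromass in each library. The others of the 8 were GLOTRDRAFT_105906, GLOTRDRAFT_45373, GLOTRDRAFT_41963, GLOTRDRAFT_129229 and GLOTRDRAFT_21127, with log2 fold changes of -7.47, -6.49, -6.43, -6.24 and -6.14.

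**Figure D3:**
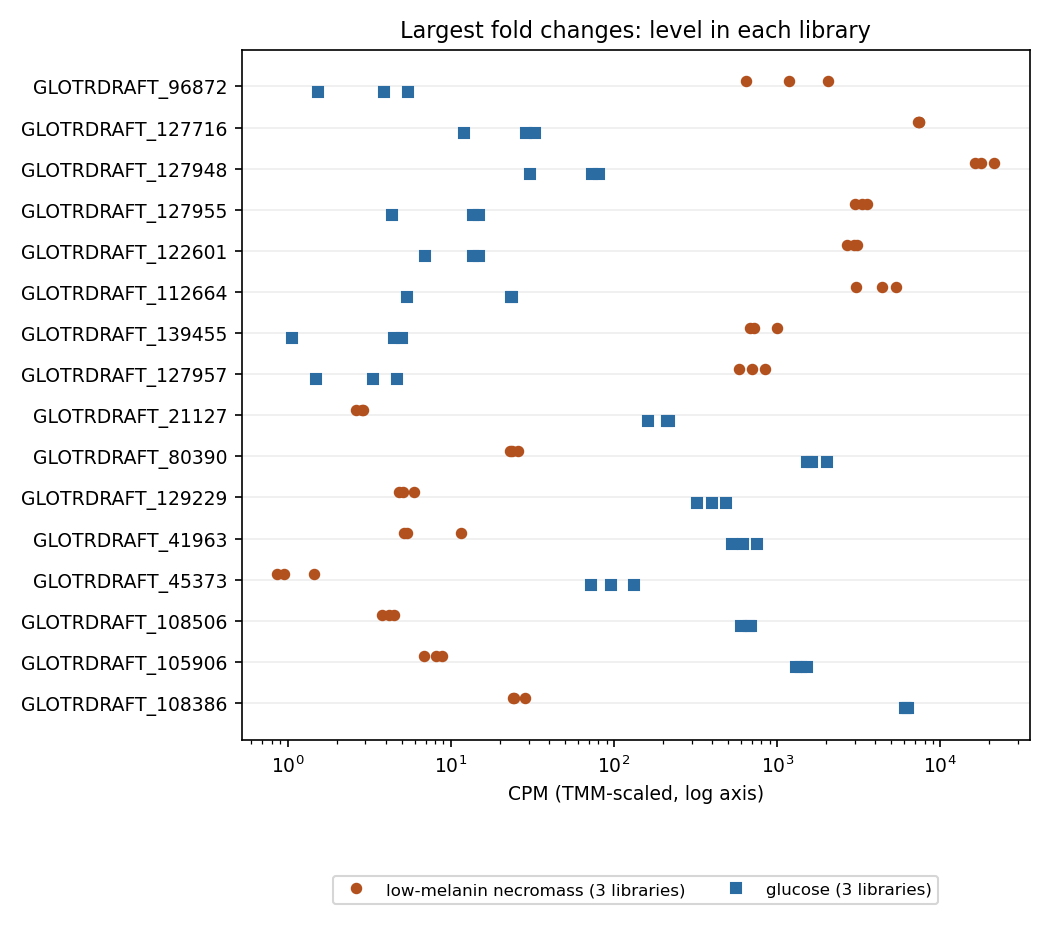
CPM on a log axis in each library for the 8 genes with the largest fold rise and the 8 with the largest fold fall. Low-melanin libraries are circles and glucose libraries squares. The genes were taken from called ones with no overlap and at least 10 CPM in the higher group. In the 8 upper rows glucose replicate 1 is the leftmost square, and in the 8 lower rows all squares lie to the right of the circles.

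By the difference in CPM, GLOTRDRAFT_127948, GLOTRDRAFT_61365, GLOTRDRAFT_57749, GLOTRDRAFT_127716 and GLOTRDRAFT_139980 rose most. GLOTRDRAFT_61365, which shares reads, had 11147, 11847 and 11763 CPM on low-melanin necromass and 477, 396 and 542 CPM on glucose, a log2 fold change of 4.62 ± 0.29 (SE, edgeR adjusted p = 1.04e-06). GLOTRDRAFT_139980 had 8466, 3919 and 3841 CPM on low-melanin necromass and 30.9, 48.6 and 56.1 CPM on glucose, a log2 fold change of 6.90 ± 0.49 (adjusted p = 2.2e-06), or 6.32 with fragment length as a covariate. Low-melanin replicate 1 was the highest library for GLOTRDRAFT_139980. GLOTRDRAFT_57749 had 8846, 18225 and 10191 CPM on low-melanin necromass and 2431, 1271 and 963 CPM on glucose, without overlap but with a wide spread. Its log2 fold change of 3.00 ± 1.03 (adjusted p = 0.0316) was not called without low-melanin replicate 2 (2.63, adjusted p = 0.079), low-melanin replicate 3 (3.10, adjusted p = 0.0517), glucose replicate 2 (2.85, adjusted p = 0.0958) or glucose replicate 3 (2.73, adjusted p = 0.089), and it was 3.92 with fragment length as a covariate. The adjusted p of GLOTRDRAFT_57749 ran from 0.000591 to 0.0958 over all alternatives.

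GLOTRDRAFT_108386, GLOTRDRAFT_139783, GLOTRDRAFT_79159, GLOTRDRAFT_138566 and GLOTRDRAFT_65274 fell most in CPM. GLOTRDRAFT_138566 had 349.7, 177 and 355 CPM on low-melanin necromass and 3864, 3806 and 4223 CPM on glucose, a log2 fold change of -3.75 ± 0.31 (SE, edgeR adjusted p = 5.76e-06). GLOTRDRAFT_65274 had 853, 979 and 1036 CPM on low-melanin necromass and 4157, 4521 and 4299 CPM on glucose, a log2 fold change of -2.18 ± 0.17 (adjusted p = 3.52e-06). In both, every low-melanin library lay below every glucose library. GLOTRDRAFT_79159 had 679, 1074 and 724 CPM on low-melanin necromass and 4364, 4601 and 5896 CPM on glucose, with a log2 fold change of -2.58 ± 0.89 (adjusted p = 0.0318). The groups did not overlap, yet its call was lost without any 1 of the 6 libraries, with log2 fold changes of -2.81 to -2.46, and with fragment length as a covariate (-2.38, adjusted p = 0.0897), the adjusted p running from 5.28e-05 to 0.0897 over all alternatives.

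Several of the strongest rises lay close together in the gene order. GLOTRDRAFT_127948, GLOTRDRAFT_127955, GLOTRDRAFT_127957 and GLOTRDRAFT_127958 belong to 1 stretch and all have transcripts of 402 bases, as has GLOTRDRAFT_127716. The stretch was looked at because of these rises. GLOTRDRAFT_127948 had 21305, 16219.9 and 17736 CPM on low-melanin necromass and 30.7, 73.0 and 81 CPM on glucose. GLOTRDRAFT_127958 had 213, 748 and 498 CPM on low-melanin necromass and 4.96, 8.23 and 7.35 CPM on glucose, a log2 fold change of 6.15 ± 0.54 (SE, edgeR adjusted p = 9.46e-06). Between these lie GLOTRDRAFT_99466, a transcript of 522 bases with a log2 fold change of 7.65 ± 0.51 (adjusted p = 1.65e-06), and GLOTRDRAFT_74492 and GLOTRDRAFT_74495, which rose less, with log2 fold changes of 1.59 and 1.44. GLOTRDRAFT_127950, inside the stretch, was not called at 3.78, 3.18 and 3.63 CPM on low-melanin necromass and 3.13, 3.18 and 2.61 CPM on glucose. The stretch ends at GLOTRDRAFT_127959, which fell, with 52.3, 28.7 and 19 CPM on low-melanin necromass and 342, 422 and 498 CPM on glucose.

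Of 15 listed transcripts of 402 bases, 12 were tested, 8 of these were called higher, none was called lower and 4 were not called. Over all genes tested 28% were called higher, and this length was noticed because of its rises. The 5 strongest took 8.69%, 9.15% and 11.4% of all TPM in the low-melanin libraries and 0.0233%, 0.0501% and 0.0553% in the glucose libraries. Of all counts they took less, 3.27%, 2.69% and 2.97% in the low-melanin libraries and 0.00526%, 0.0124% and 0.0135% in the glucose libraries. These 5 were picked for their rise, so the shares are a description. Whether the transcripts are related in sequence was not tested, and 3 of the 5 share reads with other transcripts.

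Neighbouring genes often moved the same way. Of called genes at least 2-fold higher, 23.8% were followed by a gene that was also at least 2-fold higher and 8.50% by one that was at least 2-fold lower. Of called genes at least 2-fold lower, 21.7% were followed by another and 10.7% by one at least 2-fold higher. Over all 10728 genes, 14.7% and 11.3% were called that far higher and lower. Runs of at least 3 such genes numbered 66 for higher genes, with 220 genes, and 41 for lower genes, with 161 genes. This clustering is a description with no test, and neighbours that overlap could share reads.

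The longest run of falls held 10 genes and includes pks-nrps1. On low-melanin necromass pks-nrps1 had 103, 55.1 and 91.1 CPM, against 178, 181 and 170.3 CPM on glucose, a log2 fold change of -1.09 ± 0.23 (SE, edgeR adjusted p = 0.00262). In gene order the run is GLOTRDRAFT_95030, pks-nrps1, GLOTRDRAFT_122318, GLOTRDRAFT_139944, GLOTRDRAFT_45532, GLOTRDRAFT_45834, GLOTRDRAFT_45684, GLOTRDRAFT_78970, GLOTRDRAFT_45763 and GLOTRDRAFT_95037. Their log2 fold changes ran from -2.41 to -1.05, and low-melanin libraries were below glucose libraries in each gene. GLOTRDRAFT_139944 had 305, 198 and 185 CPM on low-melanin necromass and 1008, 1019.8 and 912 CPM on glucose, a log2 fold change of -2.09 ± 0.21 (adjusted p = 1.87e-05). GLOTRDRAFT_45763 had 507, 199.6 and 219.6 CPM on low-melanin necromass and 1311, 1421 and 1409.7 CPM on glucose, with low-melanin replicate 1 the highest of its group. On one side the next gene, GLOTRDRAFT_131251, was not called (log2 fold change -0.04 ± 0.24, adjusted p = 0.894). On the other side GLOTRDRAFT_95038 rose, with a log2 fold change of 0.95 ± 0.13 (adjusted p = 0.000177).

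Of the 12 genes directly beside a tested polyketide synthase gene, 6 were called lower, 2 were called higher and 4 were not called, against 27.6% lower and 28% higher over all genes tested. Both neighbours of pks5, the polyketide synthase gene that rose, were uncalled, and those of pks2 went opposite ways, with log2 fold changes of -3.58 ± 0.52 for GLOTRDRAFT_36939 (adjusted p = 0.000249) and 0.73 ± 0.21 for GLOTRDRAFT_119834 (adjusted p = 0.0147). On one side of pks6, GLOTRDRAFT_134082 rose, with a log2 fold change of 1.24 ± 0.16 (adjusted p = 0.000106). On its other side, from pks6 to GLOTRDRAFT_82487 lie 9 genes, of which 8 were called lower and GLOTRDRAFT_67066 was not called. GLOTRDRAFT_82487 had 355, 117 and 152 CPM on low-melanin necromass and 2508, 4017 and 2443 CPM on glucose, a log2 fold change of -3.85 ± 0.45 (SE, edgeR adjusted p = 6.41e-05), or -4.47 without low-melanin replicate 1. GLOTRDRAFT_67066 had 3768, 2456 and 2017 CPM on low-melanin necromass and 1602, 3599 and 1672 CPM on glucose, and its groups overlapped. It stood among genes that fell at each of its sides. On one side of pks1, GLOTRDRAFT_43461 had a log2 fold change of -3.01 ± 0.24 (adjusted p = 5.5e-06). On one side of pks4, GLOTRDRAFT_127087 and GLOTRDRAFT_137262 changed by -2.71 ± 0.16 and -2.14 ± 0.23 on the log2 scale (adjusted p = 7.05e-07 and 3.31e-05). The genes on the other side of pks1 and of pks4 were not called. The genes named here were chosen after values in these stretches were seen.

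A shorter run held some of the deepest falls. GLOTRDRAFT_129229, GLOTRDRAFT_76247, GLOTRDRAFT_129231 and GLOTRDRAFT_76253 follow each other, with log2 fold changes of -6.24, -5.57, -5.89 and -6.0. GLOTRDRAFT_129229 had 4.84, 5.08 and 5.98 CPM on low-melanin necromass and 398, 488 and 324 CPM on glucose. GLOTRDRAFT_76253 had 6.62, 8.78 and 6.35 CPM on low-melanin necromass and 425, 548 and 419.6 CPM on glucose. In all 4 genes glucose replicate 2 was the highest glucose library.

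**Figure D4:**
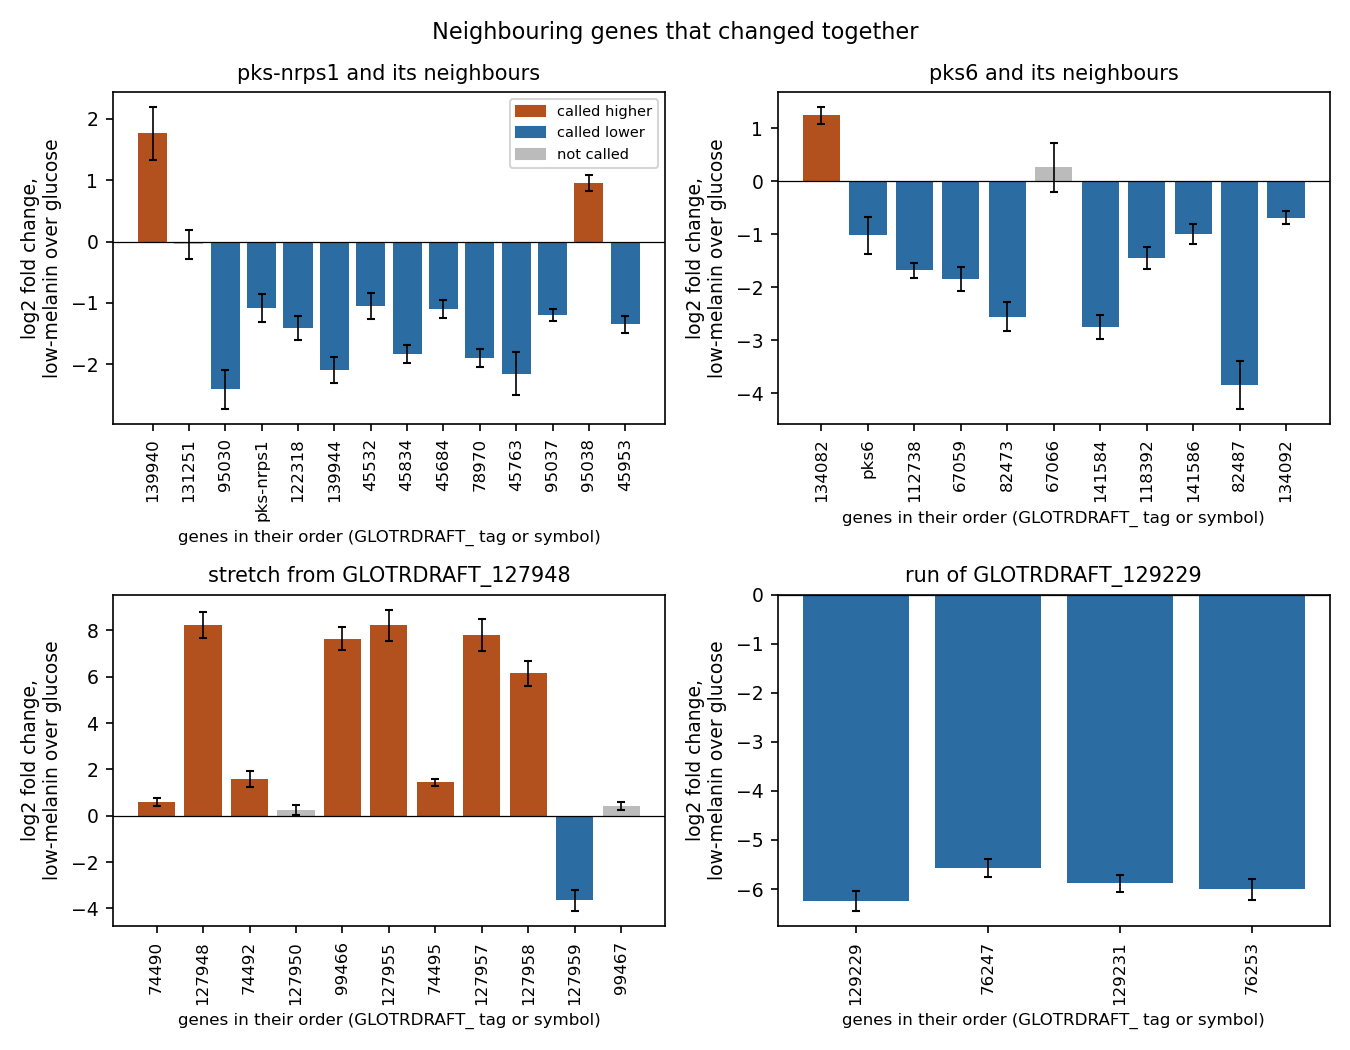
Log2 fold change, low-melanin necromass over glucose, of genes in their order in 4 stretches, with error bars of 1 SE and bars coloured by call. The pks-nrps1 panel shows 10 adjacent falls between -2.41 and -1.05, the pks6 panel 1 uncalled gene among falls, the GLOTRDRAFT_127948 panel rises to 8.23 beside a fall of -3.66, and the GLOTRDRAFT_129229 panel 4 falls of -6.24 to -5.57.

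Rises formed shorter runs, the longest of 6 genes, of which there were 2. The first runs from GLOTRDRAFT_137907 to GLOTRDRAFT_115484 and held strong rises. GLOTRDRAFT_137908, which shares reads, had 2878, 4599 and 3495 CPM on low-melanin necromass and 11.9, 89.1 and 25.8 CPM on glucose, a log2 fold change of 6.44 ± 0.72 (SE, edgeR adjusted p = 4.62e-05). GLOTRDRAFT_137907 had 1508, 2009 and 1481 CPM on low-melanin necromass and 36.6, 159 and 35.5 CPM on glucose, a log2 fold change of 4.44 ± 0.58 (adjusted p = 0.000142). Glucose replicate 2 was the highest glucose library for both, and without it their log2 fold changes were 7.57 and 5.50. GLOTRDRAFT_92616, between them, had 500.04, 53.7 and 73.3 CPM on low-melanin necromass and 3.66, 4.38 and 2.98 CPM on glucose. Its log2 fold change was 5.83 ± 0.89 (adjusted p = 0.000378), 4.11 without low-melanin replicate 1, its highest library, and 4.77 with fragment length as a covariate. GLOTRDRAFT_137909, GLOTRDRAFT_115483 and GLOTRDRAFT_115484 complete the run with log2 fold changes of 2.19, 4.12 and 2.72.

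The second run of 6, from GLOTRDRAFT_53051 to GLOTRDRAFT_124422, was more even. GLOTRDRAFT_30675 had 118, 97.9 and 89.7 CPM on low-melanin necromass and 9.24, 10.3 and 9.79 CPM on glucose, the largest change of the run with a log2 fold change of 3.38 ± 0.15 (SE, edgeR adjusted p = 1.55e-07). GLOTRDRAFT_53051, GLOTRDRAFT_102407, GLOTRDRAFT_102408, GLOTRDRAFT_53057 and GLOTRDRAFT_124422 had log2 fold changes of 2.24, 2.11, 1.80, 2.25 and 2.47. The genes on either side, GLOTRDRAFT_68501 and GLOTRDRAFT_32227, were not called, and changed by -0.22 ± 0.12 and -0.17 ± 0.10 on the log2 scale (adjusted p = 0.152 and 0.184).

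Per length, much of the most abundant RNA differed between the carbon sources. Of the 100 transcripts with the highest mean TPM in each group, 46 were in both lists. Of the 54 in the low-melanin list alone 50 were called higher and 43 of them by at least 2-fold, and of the 54 in the glucose list alone 52 were called lower and 41 by at least 2-fold. The lists come from the same libraries as the calls and are no separate test. The 10 most abundant transcripts of each library held 40.9%, 20.7% and 18.1% of TPM in low-melanin replicates 1 to 3 and 14.1%, 10.7% and 10.9% in glucose replicates 1 to 3. Among the 10 highest on glucose by mean TPM, GLOTRDRAFT_33811 had 3201, 5631 and 5492 TPM on low-melanin necromass and 17762, 13908 and 20913 TPM on glucose, a log2 fold change in counts of -1.56 ± 0.22 (SE, edgeR adjusted p = 0.000188). GLOTRDRAFT_132872 had 449, 1106 and 819.5 TPM on low-melanin necromass and 7841, 7428 and 6390.0 TPM on glucose, a log2 fold change in counts of -2.89 ± 0.26 (adjusted p = 1.04e-05). In CPM, the mean of GLOTRDRAFT_33811 was 987 on low-melanin necromass and 2905 on glucose. That of GLOTRDRAFT_132872 was 387 on low-melanin necromass and 2866 on glucose. GLOTRDRAFT_19724 had a log2 fold change of -2.35 (adjusted p = 0.0187), which was no longer called without low-melanin replicate 1 (adjusted p = 0.0573), without low-melanin replicate 3 (adjusted p = 0.0634) or with fragment length as a covariate (adjusted p = 0.0777), the range over all alternatives being 7.8e-05 to 0.0777.

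The high share in low-melanin replicate 1 went with 4 short transcripts that lie side by side, GLOTRDRAFT_50888, GLOTRDRAFT_108690, GLOTRDRAFT_50878 and GLOTRDRAFT_134131, of 180, 420, 195 and 198 bases. Together they held 29.98%, 7.94% and 2.32% of TPM in low-melanin replicates 1 to 3 and 6.98%, 2.76% and 3.24% in glucose replicates 1 to 3. Their share of counts was far smaller, 3.93%, 0.801% and 0.218% in low-melanin and 0.623%, 0.251% and 0.274% in glucose replicates 1 to 3. GLOTRDRAFT_50888, GLOTRDRAFT_50878 and GLOTRDRAFT_134131 are shorter than the mean fragment of every library, which leaves their TPM and its rank uncertain. The same holds for GLOTRDRAFT_19724, GLOTRDRAFT_127803 and GLOTRDRAFT_127959, of 243, 231 and 195 bases, among the 10 highest on glucose by mean TPM. The lists and shares by TPM carry this uncertainty. GLOTRDRAFT_134131, the transcript with the highest mean TPM in both groups, had 14550.2, 3168 and 746 CPM on low-melanin necromass and 2570.4, 879.5 and 1006 CPM on glucose. All 4 adjacent transcripts were highest in low-melanin replicate 1 and lowest in low-melanin replicate 3, and within glucose highest in replicate 1, so the groups overlapped. GLOTRDRAFT_108690 and GLOTRDRAFT_50878 were called higher, with log2 fold changes of 2.15 ± 0.80 and 2.51 ± 0.84 (SE, edgeR adjusted p = 0.0432 and 0.0284), and neither was called without low-melanin replicate 1, at 0.52 (adjusted p = 0.412) and 0.77 (adjusted p = 0.234). GLOTRDRAFT_108690 was also not called without glucose replicate 1, 2 or 3 (adjusted p = 0.0548, 0.128 and 0.109), nor GLOTRDRAFT_50878 without glucose replicate 2 or 3 (adjusted p = 0.0926 and 0.0765), nor either with a replicate block (adjusted p = 0.0834 and 0.0667). When the 6 compared libraries were fitted alone, neither was called (adjusted p = 0.0868 and 0.0631). Without high-melanin replicate 3 the call of GLOTRDRAFT_108690 was lost as well (adjusted p = 0.0604). Over all alternatives the adjusted p ran from 0.00461 to 0.412 for GLOTRDRAFT_108690 and from 0.00244 to 0.234 for GLOTRDRAFT_50878. GLOTRDRAFT_134131 and GLOTRDRAFT_50888 were not called (adjusted p = 0.0659 and 0.0953), but were without low-melanin replicate 3 (adjusted p = 0.00996 and 0.0175), and GLOTRDRAFT_134131 also without glucose replicate 1 (adjusted p = 0.0498) and by DESeq2 (adjusted p = 0.0485). Their adjusted p ran from 0.00996 to 0.605 and from 0.0175 to 0.822 over all alternatives. Low-melanin replicate 1 had the shortest and glucose replicate 1 the longest fragments. With fragment length as a covariate neither GLOTRDRAFT_108690 nor GLOTRDRAFT_50878 was called (adjusted p = 0.202 and 0.177). Their log2 fold changes in that fit were 2.15 and 2.41, little different from those given above.

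**Figure D5:**
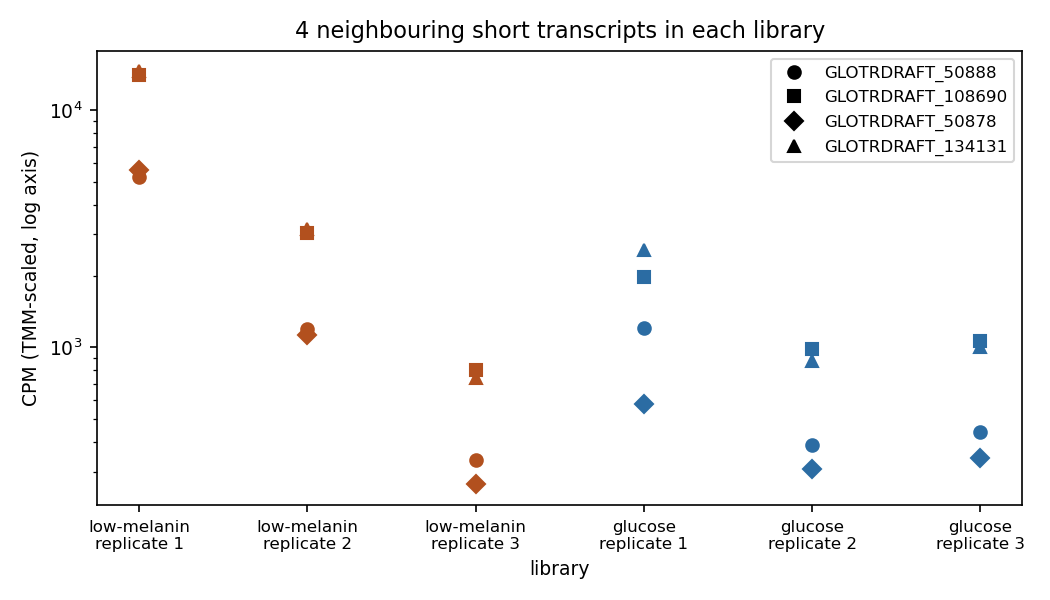
CPM on a log axis of 4 adjacent short transcripts in each library, low-melanin libraries on the left and glucose libraries on the right, with 1 marker shape per transcript. The 4 transcripts move together between libraries, and low-melanin replicates 1 and 3 hold the highest and the lowest values of each.

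Few genes were switched on from a count of 0. GLOTRDRAFT_14412 had 43, 78 and 38 counts on low-melanin necromass and 0 in each glucose library, at least 54.3-fold higher against a floor of 3 counts over the glucose group (adjusted p = 0.000623). GLOTRDRAFT_131211 had 16, 11 and 25 counts on low-melanin necromass and 0 in each glucose library, at least 17.8-fold higher by the same floor (adjusted p = 0.00266). Both share reads with other transcripts, and the floor covers counting error alone. No called lower gene had 0 counts in all 3 low-melanin libraries.

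Near this end, 5 genes were called higher with a mean under 1 CPM on glucose and of at least 10 CPM on low-melanin necromass, and 1 gene was called lower with the reverse. GLOTRDRAFT_40340 had 44, 47.8 and 37.4 CPM on low-melanin necromass and 0.914, 1.04 and 1.01 CPM on glucose, a log2 fold change of 5.44 ± 0.30 (SE, edgeR adjusted p = 4.7e-07). GLOTRDRAFT_27801 had 14.5, 14.7 and 10.02 CPM on low-melanin necromass and 0.144, 0.26 and 0.532 CPM on glucose, a log2 fold change of 5.38 ± 0.46 (adjusted p = 7.83e-06). The other 3 were GLOTRDRAFT_134401, GLOTRDRAFT_103543 and GLOTRDRAFT_131887. GLOTRDRAFT_41860, the reverse case, had 0.612, 0.924 and 0.816 CPM on low-melanin necromass and 21.1, 9.01 and 16.6 CPM on glucose, a log2 fold change of -4.30 ± 0.39 (adjusted p = 1.1e-05). These 6 genes were chosen after their values were seen.

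Some of the most highly read genes were not called. GLOTRDRAFT_65735 had 4771, 3469.7 and 4007 CPM on low-melanin necromass and 3189, 3667 and 3954 CPM on glucose, with overlap and a log2 fold change of 0.18 ± 0.21 (SE, edgeR adjusted p = 0.49). GLOTRDRAFT_109132 had 3210.1, 3906 and 3725 CPM on low-melanin necromass and 4483, 4595 and 4552 CPM on glucose. Its groups did not overlap, but its log2 fold change of -0.33 ± 0.19 was not called (adjusted p = 0.166). GLOTRDRAFT_60667 had 3142, 5293 and 3758 CPM on low-melanin necromass and 6711, 5355 and 6324 CPM on glucose, with a log2 fold change of -0.59 ± 0.30 (adjusted p = 0.124), and was called when high-melanin replicate 3 was left out of the fit (adjusted p = 0.0334) or when the 6 compared libraries were fitted alone (adjusted p = 0.0483). The range over all alternatives was 0.0334 to 0.463. GLOTRDRAFT_111189 had a log2 fold change of -0.78 ± 0.37 (adjusted p = 0.0979), and was called without low-melanin replicate 2, at -1.23 (adjusted p = 0.0147), without high-melanin replicate 3 (adjusted p = 0.0381) and by DESeq2 (adjusted p = 0.0451), with a range of 0.0147 to 0.371 over all alternatives. A missed threshold does not show that the levels were equal.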

How the data were processed

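RNA was sequenced from *G. trabeum* biomass. The tools named in the submitters' processing notes are kallisto 0.51.1 and DESeq2 1.48.2. The build, the transcript set and whether strand was kept are not given in the sources used here, so overlapping and antisense genes may share reads. Each deposited table gives, for every transcript, kallisto's estimated count, in which reads that match several transcripts are split, and the deposited TPM. Transcripts are said to share reads if the estimate differs by more than 0.01 from a whole count somewhere, and those with such an estimate in a library held 8.16% to 10.1% of its counts.

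Estimated counts were rounded. filterByExpr by carbon source kept at least 99.9875% of counts, TMM scaled the libraries, and edgeR 4.0.16 (glmQLFit with robust estimation, glmQLFTest) in R 4.3.3 was fitted to all 9 *G. trabeum* libraries, with p-values adjusted by Benjamini-Hochberg over 10728 genes. SE is the size of the log2 fold change over the root of its F statistic. All pairs of libraries within a group differed by more than counting noise (chi-square per degree of freedom of 30.7 or more). Alternatives were DESeq2 1.42.0, other scalings, no filter, other sets of libraries, a replicate block, fragment length as a covariate and shared reads left out. The fit without high-melanin replicate 3 was added after seeing the data.

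The comparison and the lists were chosen with earlier results of these data known. Named genes are, each way, the 8 called ones of largest fold change with no overlap and at least 10 CPM in the higher group; the 5 each way with the largest CPM difference; the longest runs of neighbours; the 5 uncalled genes with the highest CPM; and every symbol in the reference gene table (assembly Glotr1_1), a list made after the files were seen. That table gave names and gene order only, with a border placed wherever the start position fell. It holds no products or sequences, so lists by product, protein families and promoter motifs were not used here.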

Additional observations from a re-analysis of the deposited data

How the results depend on the processing

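The counts of called genes stayed within 1.5 times the values given above under all 15 alternatives. Higher genes numbered 2448 to 3221 and lower genes 2567 to 3406, and those changed at least 2-fold 1388 to 1680 and 1058 to 1257. Leaving out 1 of the 6 compared libraries gave 2459 to 2722 higher and 2601 to 2776 lower genes, and 1471 to 1610 and 1187 to 1237 at 2-fold. Fragment length as a covariate kept 80.7% of the calls with their direction (2448 higher, 2567 lower). Upper-quartile scaling called 54.5% of called genes higher, against 50.4% with TMM. Deviations from the group mean had correlations of -0.13, -0.03 and -0.01 between same-numbered low-melanin and glucose libraries. Between differently numbered ones they ran from -0.11 to 0.12. With 3 libraries per group these correlations cannot decide whether the numbers pair the libraries. A replicate block gave 2785 higher and 2730 lower genes, with 91.8% of calls kept. Of 135 genes followed, none changed direction where it was called in the main fit or in the alternative. Some uncalled genes did change sign, among them HTP2, with log2 fold changes of -0.14 to 0.09. Under some alternative 8 of 115 called genes lost their call and 6 uncalled genes gained one, and the cause was not tested. Of genes under 1 CPM 22.9% were called and of those above 1000 CPM 72.3%, so a change in a weakly read gene may have gone undetected at this depth.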

Other observations

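Further runs of neighbouring genes, chosen after their values were seen, fell evenly on low-melanin necromass. A run of 8 genes, GLOTRDRAFT_117484, GLOTRDRAFT_140403, GLOTRDRAFT_122703, GLOTRDRAFT_117487, GLOTRDRAFT_132015, GLOTRDRAFT_132016, GLOTRDRAFT_117488 and GLOTRDRAFT_112083, had log2 fold changes of -2.42 to -1.22. GLOTRDRAFT_112083 had 38.7, 48.9 and 42.2 CPM on low-melanin necromass and 176, 189 and 163 CPM on glucose, a log2 fold change of -2.03 ± 0.14 (SE, edgeR adjusted p = 1.81e-06). The run is bounded by GLOTRDRAFT_132009 and GLOTRDRAFT_117490, which were not called, with log2 fold changes of 0.11 ± 0.11 (adjusted p = 0.453) and 0.01 ± 0.11 (adjusted p = 0.922). A run of 7 genes that includes GLOTRDRAFT_69625 had log2 fold changes of -2.57 to -1.51. GLOTRDRAFT_69625 had 50.9, 53.5 and 63.9 CPM on low-melanin necromass and 304, 243 and 299.8 CPM on glucose, a log2 fold change of -2.33 ± 0.14 (adjusted p = 7.5e-07). In the other direction, GLOTRDRAFT_61365 stands beside GLOTRDRAFT_111225, which had 1204, 1412 and 1511 CPM on low-melanin necromass and 73.4, 75.3 and 64.8 CPM on glucose, a log2 fold change of 4.27 ± 0.26 (adjusted p = 7.8e-07). GLOTRDRAFT_96872, the most raised of the called genes with no overlap and at least 10 CPM in the higher group, lies in a run of 4 with GLOTRDRAFT_96873, GLOTRDRAFT_112664 and GLOTRDRAFT_118283, whose log2 fold changes were 3.45, 7.92 and 2.15. GLOTRDRAFT_139455, also among the 8 largest fold rises under those limits, lies next but one to the laccase gene Gtlcc2, which fell, with the uncalled GLOTRDRAFT_94428 between them (log2 fold change -0.26 ± 0.41, adjusted p = 0.61). Of 127 tRNA-type transcripts listed, 5 were tested, and 2 of these were called higher and 1 lower, a share of calls near the 55.6% over all genes.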
